A study of Mus musculus with 2 samples.

Results

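The transcripts of 6 genes of tail scale and hair were followed in single cells of mouse skin epidermis. They were the keratins Krt36, Krt84 and Krt24, the keratin-associated protein genes Krtap7-1 and Krtap3-3, and Tchh, which encodes trichohyalin. These are 6 of the 32286 features in the deposited tables, and all were found in both tables. They were picked by name with earlier results of these libraries known, so their levels and their differences between libraries are a description without a test. The study made 2 droplet libraries, 1 per genotype. The control library had the genotype Involucrin-CREER/Rosa-SmoM2. In it a hormone-inducible Cre, driven by the promoter of the differentiation gene involucrin, switches on SmoM2, an active form of the hedgehog signal transducer Smoothened. The second library, called GOF here, adds Krt14rtTA and Survivin GOF to both of these alleles. Krt14rtTA is a transactivator under the basal keratin 14 promoter, and Survivin GOF is a gain-of-function allele of Survivin, a protein of mitosis and cell survival. Both genotypes carry SmoM2, so no library without active Smoothened was available for comparison, and the transactivator and the Survivin allele cannot be told apart. Per the labels, sorted cells were α6High, CD34- and YFP+. The body site, age, sex and number of the mice and the time after induction are not given in the sources used here. At issue in the series is what Survivin adds to the tumour-starting ability of epidermal cells with active Smoothened.

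Keratin filaments are built from pairs of a type I and a type II chain. Krt36 (type I) and Krt84 (type II) belong to the hard, cysteine-rich hair keratins, which also form nail and, in the mouse, the scales of tail skin. Krt24 is a type I keratin of differentiating epidermis, and the soft epidermis between tail scales makes Krt10 and Krt2. Keratin-associated proteins such as those of Krtap7-1 and Krtap3-3 link hard keratin filaments to each other. Trichohyalin is an S100 fused-type protein of the inner root sheath and hair medulla, where deiminases and transglutaminase 3 modify and cross-link it.

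In mm10, Krt36 (ENSMUSG00000020916) lies on the minus strand of chromosome 11 at 100102007 to 100105626, and its longest transcript has 7 exons. Krt24 (ENSMUSG00000020913), with 8 exons, and the single-exon gene Krtap3-3 (ENSMUSG00000069722) lie on the same strand of chromosome 11 at 99279959 to 99285262 and at 99550130 to 99550865. Krt84 (ENSMUSG00000044294, 9 exons) lies on the minus strand of chromosome 15 at 101525026 to 101532820. Krtap7-1 (ENSMUSG00000056706, 1 exon) lies on the minus strand of chromosome 16 at 89507703 to 89508323. Tchh (ENSMUSG00000052415, 2 exons) lies on the plus strand of chromosome 3 at 93442330 to 93449077, inside the span of the antisense lincRNA gene Gm37245. All 6 are protein-coding. The Krtap3-3 transcript shares an identical run of 333 bases with Krtap3-2 and one of 98 bases with Krtap3-1, so reads could be split among them and its counts are uncertain. For Krt36 the longest run shared with another keratin was 56 bases (Krt31), and for Krt84 and Krt24 it was 39 and 27 bases. Krtap7-1 and Tchh shared no run of 20 or more bases with the 117 transcripts compared, whose gene names begin with Krt or Tchh. S100 fused-type genes with other names were not compared.

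Because 5 of the members were high in the scale-like cells described below, the 120 bases upstream of the start are shown for the 5 members with a RefSeq promoter window. The sequences come from RefSeq on GRCm38.p6 and are written 5′ to 3′ on the strand of the gene. Capitals mark the letters TATATAA, a form of the TATA box. The windows are chr11:100105627-100105746 for Krt36, chr15:101532821-101532940 for Krt84, chr11:99285263-99285382 for Krt24, chr11:99550864-99550983 for Krtap3-3 (minus strand for these 4) and chr3:93442210-93442329 (plus strand) for Tchh.
Krt36: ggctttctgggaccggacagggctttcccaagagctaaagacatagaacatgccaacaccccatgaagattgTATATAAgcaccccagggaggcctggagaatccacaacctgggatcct
Krt84: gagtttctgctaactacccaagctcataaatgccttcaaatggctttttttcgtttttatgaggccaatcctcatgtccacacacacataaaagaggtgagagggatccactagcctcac
Krt24: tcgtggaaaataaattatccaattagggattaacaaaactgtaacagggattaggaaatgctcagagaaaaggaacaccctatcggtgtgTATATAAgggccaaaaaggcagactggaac
Krtap3-3: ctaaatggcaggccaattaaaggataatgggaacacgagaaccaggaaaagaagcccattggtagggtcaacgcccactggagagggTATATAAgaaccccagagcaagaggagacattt
Tchh: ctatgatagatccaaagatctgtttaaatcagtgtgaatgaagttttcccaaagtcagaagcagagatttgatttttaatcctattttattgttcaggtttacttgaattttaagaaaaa
In 3 of the 5, TATATAA lay on the gene's strand within the 50 bases before the start. Its first base was 48 bases before the start in Krt36, 30 in Krt24 and 33 in Krtap3-3. Of 32851 such 50-base windows, 254 (0.773%) hold these letters on the gene's strand and 295 (0.898%) on either strand. The Krt84 and Tchh windows do not hold them, which says nothing about which factors act there.

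Barcodes passed as cells with 1500 or more detected genes and no more than 10% mitochondrial UMIs (unique molecular identifiers, each counting 1 captured transcript). This filter and the removal of putative doublets left 10274 control and 6496 GOF cells at medians of 7653.5 and 12321 UMIs, and 20 barcodes occurred in both libraries. They fell into 23 clusters, made without the 6 genes and their relatives. Of these cells 10078 and 6315 were keratinocytes, that is, all clusters but the melanocyte-like cluster 12 and the immune-like cluster 18. Krt14, the basal keratin that marks epithelial cells, was at 3451 CPM or more in every cluster, both libraries pooled. It stood at 18734 CPM in cluster 12 and 11999.5 CPM in cluster 18, against 4248 CPM in cluster 6, described below. The melanocyte-like and immune-like cells thus carried keratinocyte RNA too, and its source was not tested. Clusters 4 and 13 came almost only from the control (298 and 1698 cells, against 12 and 2), and cluster 22 almost only from the GOF library (66 against 2). By Xist and Y-linked UMIs, 7315 cells were called male and 30 female among control keratinocytes. Among GOF keratinocytes 1805 were called male and 3605 female. That library thus held cells of both sexes and so of at least 2 mice. Levels are given as CPM, the UMIs of a gene summed over the cells of a population and scaled to a common total. Neither genotype has a replicate library, and all intervals in the text are exact 95% intervals that cover counting error only. Barcodes with fewer than 1000 UMIs (908 and 426) stand for free RNA, though those of the control had a median mitochondrial share of 10.0%, against 1.25% in the GOF library. The tables held no barcode under 502 (control) or 500 (GOF) UMIs. Emptier droplets were thus not available, and these low barcodes can include small or damaged cells.

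Krt36 and Krt84 were highest by far in 1 cluster, cluster 6, with 444 control and 195 GOF cells. It was called tail scale-like because Krt84, Krt36 and Prr9 were among its 10 leading genes, so the name rests in part on genes described here. The labels name no tail skin. In these cells Krt36 stood at 38556 CPM (38361 to 38751) in control and 36414 CPM (36181 to 36648) in GOF cells. Krt84, the type II partner class of hair keratin, stood at 15550 CPM (15427 to 15675) and 16523 CPM (16366 to 16681). The GOF to control ratio was 0.944 (0.937 to 0.952) for Krt36 and 1.06 (1.05 to 1.08) for Krt84, so each gene was within a small margin of its own level in the other library. Krt24 was at 878 and 824 CPM (ratio 0.939, 0.889 to 0.991), and Krtap7-1 at 119 and 113 CPM (0.953, 0.820 to 1.11). Krtap3-3 was at 54.6 and 22.2 CPM and Tchh at 5.38 and 317 CPM, and both of these differences turn on a few cells, as described with each gene.

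Scale-like cells varied widely in Krt36. In the control the lowest cell had 221 CPM, the median cell 38761 CPM and the highest 143127 CPM, which is 14.3% of that cell's UMIs. In the GOF library the lowest was at 0, the median at 36763 CPM and the highest at 115434 CPM. The lower end differed more than the middle, since 1 cell in 10 was below 11835 CPM in control and below 1917 CPM in GOF scale-like cells. For Krt84 the median cell had 16237 and 17919 CPM and the highest 73696 and 105733 CPM. After each cell was thinned to 3000 UMIs, 424 of 443 control cells and 179 of 195 GOF cells held both Krt36 and Krt84. In the 2 libraries, 1 and 9 cells held no Krt36 UMI. With independent detection 423 and 176 cells would hold both. Each gene was found in nearly all cells, so this overlap cannot show whether the 2 go together cell by cell. A Krt24 UMI was found in 79.9% (75.9 to 83.5) and 72.3% (65.5 to 78.5) of the thinned cells (92.8% and 92.3% unthinned, with median depths of 7479 and 12023).

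The scale-like cluster held a small share of the keratinocytes and a large share of these transcripts. Of the keratinocytes it took up 4.41% (control) and 3.09% (GOF). It carried 44.2% and 63.5% of all keratinocyte UMIs of Krt36, 47.2% and 58.5% of those of Krt84, and 42.7% and 64.9% of those of Krtap7-1. For Krt24 its share was lower, 23.4% and 36.9%. Relative to all other keratinocytes, Krt36 was 19.3-fold higher in scale-like control cells and 64.7-fold higher in scale-like GOF cells, and Krt84 was 21.7-fold and 52.6-fold higher. Krtap7-1 was 18.1-fold and 68.8-fold higher and Krt24 7.44-fold and 21.8-fold. Krtap3-3 was 26.4-fold and 75.8-fold higher, and 10.3-fold and 41.3-fold without the 3 cells that held 20 or more of its UMIs. Over all genes with at least 50 UMIs, 4.71% and 5.5% were at least 2-fold higher in these cells and 0.156% and 0.37% at least 10-fold higher. The larger GOF folds came with lower levels in the other keratinocytes. These had 2003 and 563 CPM of Krt36 and 716 and 314 CPM of Krt84.

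**Figure D1:**
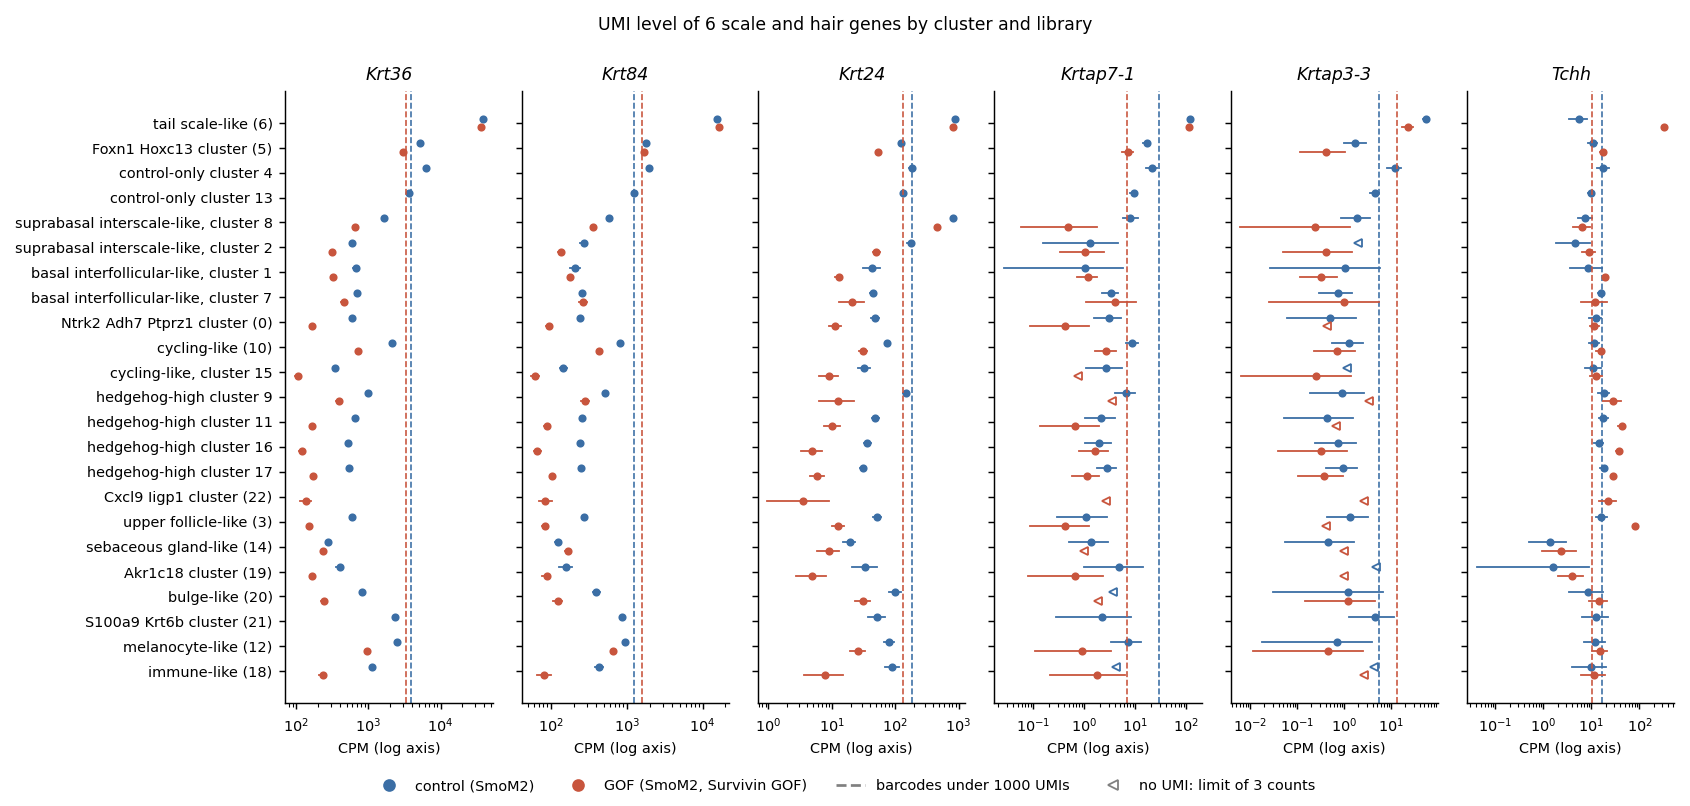
Level of each gene in each cluster on a log CPM axis, control in blue and GOF in red, with exact 95% Poisson intervals as bars, dashed lines for the level in barcodes under 1000 UMIs, and clusters with fewer than 20 cells in a library left out. Krt36 and Krt84 lie far to the right of the dashed lines only in tail scale-like cells, and Krt24 also in cluster 8. Tchh is in no control cluster far to the right of its line, and in cluster 14 it lies far to the left (1.36 against 16.5 CPM).

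Outside the scale-like cells, most clusters did not exceed the low barcodes in Krt36 and Krt84. Barcodes under 1000 UMIs held Krt36 at 3894 CPM (3752 to 4040) in control and 3326 CPM (3122 to 3541) in GOF barcodes, and Krt84 at 1248 and 1597 CPM. Of the clusters other than cluster 6 with at least 50 cells, 18 of 20 (control) and 19 of 19 (GOF) were at or below that level for Krt36. For Krt84 it was 17 of 20 and 18 of 19. Melanocyte-like cells should lack hair keratins, though they held much Krt14, as given above. They had Krt36 at 2533 and 946 CPM, and immune-like cells at 1119 and 234 CPM. The share of cells with a UMI followed the same pattern. In thinned melanocyte-like cells 79.4% and 57.8% held a Krt36 UMI (96.3% and 93.0% unthinned, with median depths of 8137 and 12325). In the hedgehog-high clusters it was 78.0% and 42.1% (98.2% and 90.1% unthinned, with median depths of 7750.5 and 14019). The shares of the hedgehog-high clusters were thus no higher than those of melanocyte-like cells, and no expression is read from them. Levels in low barcodes did not differ between the libraries as those of the clusters did, with GOF to control ratios of 0.854 (0.794 to 0.919) for Krt36 and 1.28 (1.14 to 1.43) for Krt84. The source of these UMIs was not tested.

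The order of Krt36 levels began in the control with cluster 6 (38556 CPM), control-only cluster 4 (6281 CPM), cluster 5 (5191 CPM) and control-only cluster 13 (3679 CPM). Melanocyte-like cells (2533 CPM), the S100a9 Krt6b cluster (2309 CPM), cycling-like cluster 10 (2119 CPM) and interscale-like cluster 8 (1640 CPM) came next, and the lowest was the sebaceous gland-like cluster 14 at 280 CPM. In the GOF library cluster 6 (36414 CPM) was followed by cluster 5 (3062 CPM), melanocyte-like cells (946 CPM), cluster 10 (721 CPM) and cluster 8 (645 CPM), and the lowest was cluster 15 at 106 CPM. Counting intervals of these named neighbours did not overlap. Krt84 had the same first 4 clusters in the control (15550, 1961, 1782 and 1254 CPM) and the same first 5 in the GOF library (16523, 1693, 650, 426 and 360 CPM). The melanocyte-like cells and the S100a9 Krt6b cluster were not apart in Krt84 in the control (intervals of 896 to 998 and 820 to 945 CPM).

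Clusters 5 and 4 stood next to the scale-like cells. Cluster 5 (890 and 612 cells) had Foxn1, a transcription factor of hair and nail differentiation, among its leading genes, with Selenbp1, Mt4 and Krtdap, and was left unnamed. Its Krt36 level was 5191 CPM in the control, above the 3894 CPM of low barcodes there, and 3062 CPM in the GOF library, below the 3326 CPM of low barcodes (ratio 0.590, 0.581 to 0.599). Krt84 was at 1782 and 1693 CPM (0.95, 0.929 to 0.971). Within the cluster the signal was uneven. The median cell had 990 and 272 CPM of Krt36, while 1 cell in 10 had more than 15261 CPM (control) or more than 8379 CPM (GOF). The median cell was thus below the low barcodes, and the high mean came from a minority of cells. Hemoglobin genes were also among its leading genes, at a summed 2.99 CPM in control and 81.4 CPM in GOF cells, and their part in these values was not tested. In the 298 control cells of unnamed cluster 4, Krt36 was at 6281 CPM and Krt84 at 1961 CPM, and 97.3% of the cells held a Krt84 UMI.

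The ratio of Krt36 to Krt84 UMIs was compared between clusters. It was 2.48 (2.46 to 2.5) in control and 2.20 (2.18 to 2.23) in GOF scale-like cells. Over the other clusters it ran from 1.93 to 3.22 in the control (median 2.55) and from 1.40 to 2.86 in the GOF library (median 1.79), and in low barcodes it was 3.12 (2.90 to 3.37) and 2.08 (1.86 to 2.33). Clusters differed beyond counting error, as control cluster 9 was at 1.93 (1.82 to 2.05) and control cluster 13 at 2.93 (2.89 to 2.98). What lies behind these differences was not tested. Krt36 per Krt24 UMI varied far more. It was 43.9 and 44.2 in scale-like cells and 21.4 (17.9 to 25.6) and 24.6 (18 to 34.7) in low barcodes, but 2.02 (1.94 to 2.10) and 1.40 (1.32 to 1.49) in interscale-like cluster 8.

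**Figure D2:**
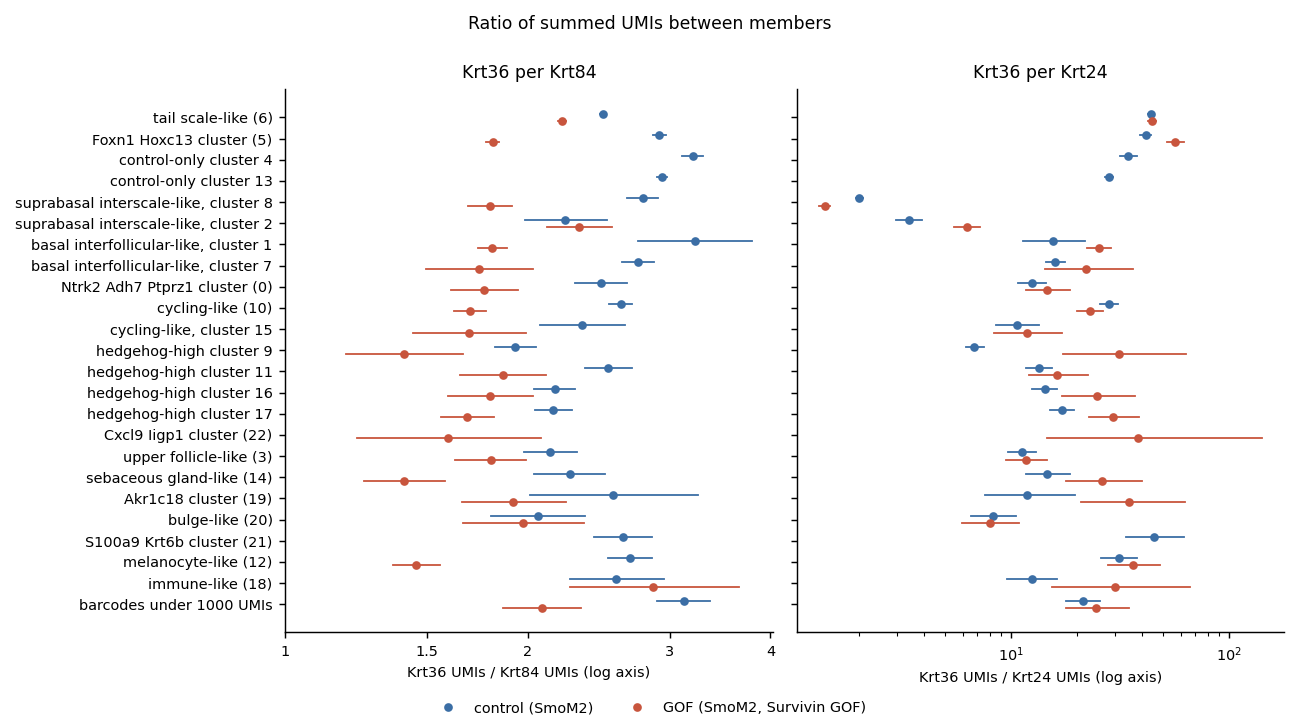
Summed Krt36 UMIs per Krt84 UMI (left) and per Krt24 UMI (right) in each cluster and in barcodes under 1000 UMIs, on log axes, with exact 95% intervals for counting error as bars. Krt36 per Krt84 stays between 1.40 and 3.22, while Krt36 per Krt24 drops to 2.02 and 1.40 in cluster 8.

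Krt24 had a second site of high level, the suprabasal interscale-like cluster 8 (555 and 312 cells), whose leading genes include Krt2, Krt10 and Krt1. There it stood at 812 CPM (786 to 838) in control and 461 CPM (440 to 482) in GOF cells, against 182 and 135 CPM in low barcodes. Cluster 8 carried 26.3% and 33.3% of the keratinocyte UMIs of Krt24 and only 2.28% and 1.81% of those of Krt36. In thinned cells 70.3% (66.3 to 74.1) and 47.4% (41.8 to 53.1) held a Krt24 UMI (86.8% and 67.6% unthinned, with median depths of 7627 and 12211), against 16.2% and 5.47% of melanocyte-like cells. Its GOF to control ratio there was 0.567 (0.537 to 0.60), lower than the 0.939 of scale-like cells. That difference between the 2 ratios was not tested. No other cluster with at least 50 cells was above the low barcodes in Krt24, in either library. The next were cluster 4 (182 CPM) and interscale-like cluster 2 (176 CPM) in the control and cluster 5 (53.9 CPM) in the GOF library.

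Krtap7-1 was sparse, with 1084 UMIs in control and 447 in GOF keratinocytes, and its share in scale-like cells, given above, was close to that of Krt36. In them 42.3% of control and 38.5% of GOF cells held a UMI, and after thinning 22.1% (18.3 to 26.3) and 21% (15.5 to 27.4), against 0.735% and 0.781% of thinned melanocyte-like cells. All 98 thinned control cells and all 41 thinned GOF cells of this cluster with a Krtap7-1 UMI also held Krt84. That gene was found in 95.7% and 94.9% of all thinned scale-like cells, so the overlap cannot show a link. No cell dominated its counts, since the 3 highest cells held 4.52% and 13.6% of the UMIs. The next clusters were cluster 4 at 21 CPM and cluster 5 at 16.7 CPM in control cells, and cluster 5 at 7.17 CPM in GOF cells. Low barcodes had 21 and 2 UMIs of it (28.8 and 6.75 CPM), so pooled levels of clusters outside cluster 6 cannot be told from free RNA at this depth. A single control cell of cluster 8 stood out, with 14 of the 38 Krtap7-1 UMIs of that cluster in the control. It held 22 UMIs of Krt31, 4 of Krt36 and 0 of Krt84, and their source was not tested.

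Krtap3-3 rested on very few cells. Keratinocytes held 409 UMIs in 230 control cells and 85 UMIs in 45 GOF cells, and the 3 highest cells of each library carried 33.5% and 41.2% of them. Single scale-like cells held 92 and 38 UMIs (control) and 26 UMIs (GOF). Each of these 3 also held Krtap3-1, the neighbouring family member that shares sequence with it, at 77, 24 and 21 UMIs. In scale-like cells as a whole the GOF to control ratio was 0.407 (0.298 to 0.548), and without the cells of 20 or more Krtap3-3 UMIs it was 0.567 (0.363 to 0.866; 83 and 31 UMIs). This removal was chosen after the data were seen. The call of a 2-fold lower level thus depends on those 3 cells. Low barcodes held 4 UMIs of it in each library (5.48 CPM, 1.49 to 14, and 13.5 CPM, 3.68 to 34.6). Without the cells rich in it, scale-like cells had 21.4 and 12.1 CPM, so in the GOF library the gene was then not above low barcodes. Of the thinned scale-like cells with a Krtap3-3 UMI, 17 of 26 (control) and 5 of 9 (GOF) also held Krtap7-1, which was found in 22.1% and 21% of all thinned scale-like cells.

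Tchh did not follow the keratins. In control scale-like cells it was at 5.38 CPM (3.33 to 8.23, 21 UMIs), below the 12.3 CPM of all other keratinocytes. Its highest control levels were 18 CPM in hedgehog-high clusters 9 and 17 and 17.7 CPM in hedgehog-high cluster 11, and these did not differ beyond counting error from low barcodes (16.5 CPM, 8.5 to 28.7, 12 UMIs). In GOF keratinocytes 8 cells with 20 or more UMIs carried 1599 of 3270 UMIs (48.9%), and the highest alone carried 680 (20.8%). No control keratinocyte had more than 14. Without those 8 cells the GOF to control ratio over all keratinocytes went from 2.77 (2.59 to 2.97) to 1.42 (1.32 to 1.53), and in male-called cells without them it was 1.04 (0.914 to 1.17). In upper follicle-like cluster 3 the level was 15.9 and 81.2 CPM (ratio 5.09), and 0.808 (0.577 to 1.14) without the 1 such cell it held. In scale-like cells 2 of the 8 held 806 of 813 GOF UMIs, and without them the ratio went from 58.9 to 0.518 (0.186 to 1.26). Tchh is therefore not described as a gene of the scale-like cells. This removal too was chosen after the data were seen.

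Most of the cells rich in Tchh carried inner root sheath keratins and little Krt36. The cell with 680 Tchh UMIs lay in cluster 6 and had 66 UMIs of Krt71, 74 of Krt25, 103 of Krt27 and 113 of Krt73, which pair in the sheath, with 0 of Krt36 and 1 of Krt84. The second, with 494 Tchh UMIs, lay in upper follicle-like cluster 3 and had none of the 7 inner root sheath keratins but 25 UMIs of Krt75, a keratin of the companion layer and medulla. The third (149 Tchh UMIs) and the sixth (39) were among the 12 GOF cells of cluster 4, and held 407 and 28 UMIs of Krt71. The fourth (126) lay in cluster 6, with 296 UMIs of Krt25, 107 of Krt75 and 97 of Krt36. The fifth (52) and seventh (38) also held Krt25, at 221 and 135 UMIs. The eighth (21) held no inner root sheath keratin, and it lay, like the fifth, in hedgehog-high cluster 16. Over all GOF scale-like cells the summed level of 8 inner hair follicle markers was 489 CPM, against 145 CPM in the control, and 2 and 3 of them were at 0. Without the 2 cells rich in Tchh this sum was 160 CPM. Of the 8 markers, Gata3 alone was at 139 CPM in control scale-like cells, and at 140 CPM in the other control keratinocytes. In all GOF scale-like cells Gata3 was at 164 CPM, against 134 CPM in the other GOF keratinocytes. The sums are thus no measure of an inner root sheath programme.

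**Figure D3:**
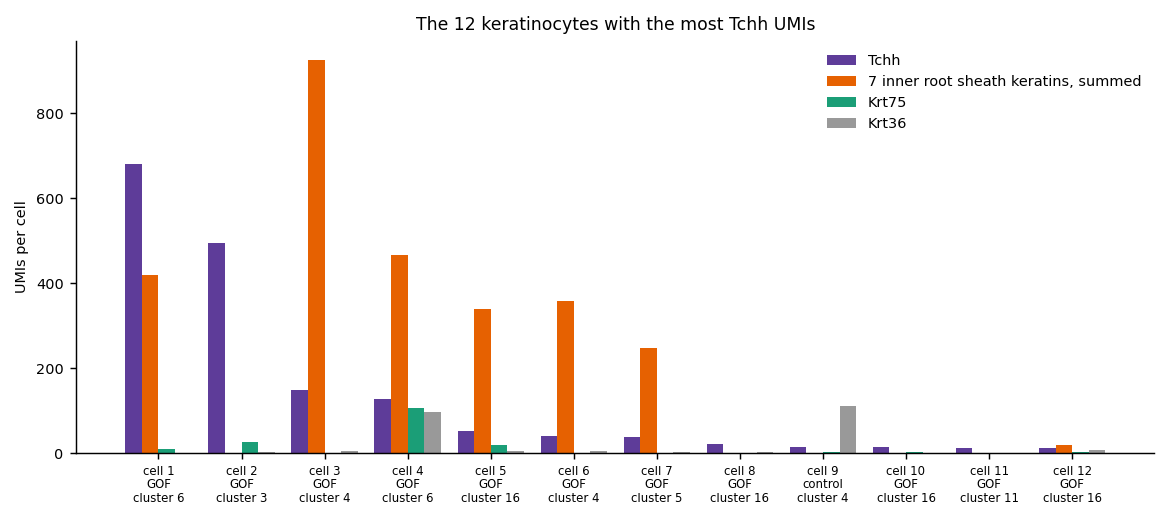
UMIs per cell of Tchh, of 7 inner root sheath keratins summed, of Krt75 and of Krt36 in the 12 keratinocytes with the most Tchh UMIs, labelled by library and cluster. Of the 8 cells with 20 or more Tchh UMIs, all from the GOF library, 6 carry inner root sheath keratins, and Krt36 is above 10 UMIs in 1 of them.

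The hedgehog-high clusters were the 4 clusters (9, 11, 16 and 17, with 2496 control and 1328 GOF cells) whose level of Ptch1, a direct hedgehog target, was at least 0.5 of the highest. They had 403 to 689 CPM of Ptch1, and the next, cluster 22, had 271 CPM. The grouping was made after the values were seen. Their Krt36 level was 621 CPM (610 to 631) in control and 165 CPM (160 to 171) in GOF cells. For Krt84 the levels were 287 and 96.9 CPM, for Krt24 they were 53.0 and 6.71 CPM, for Krtap7-1 2.97 and 1.13 CPM (69 and 25 UMIs) and for Krtap3-3 0.775 and 0.270 CPM (18 and 6 UMIs). All 5 were below the low barcodes of their library. The median cell had 522 and 143 CPM of Krt36, 9 in 10 cells were below 1338 and 445 CPM, and the highest cell had 25533 and 8054 CPM. Cells of the GOF library were deeper (median 14019 against 7750.5 UMIs), and the part of depth and of free RNA in these gaps was not tested.

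Tchh was the exception in the hedgehog-high clusters. Its level was 16.8 CPM (15.2 to 18.6) in control and 33.6 CPM (31.2 to 36.1) in GOF cells, a ratio of 1.997 (1.76 to 2.26), just short of 2-fold, and 1.81 (1.59 to 2.05) without the GOF cells of 20 or more UMIs. In the GOF library it stood above low barcodes (10.1 CPM, 2.09 to 29.6, on 3 UMIs), melanocyte-like cells (15.1 CPM, 10.4 to 21.2) and immune-like cells (11.3 CPM), but near the 30.4 CPM of all GOF barcodes under 1500 genes (182 UMIs), which can hold damaged cells too. In the control it did not stand apart from low barcodes (16.5 CPM) or melanocyte-like cells (12 CPM, 6.99 to 19.2). Cluster 11 had 17.7 and 42.2 CPM (ratio 2.39, 1.83 to 3.13), cluster 16 had 14.2 and 37.4 CPM (2.64, and 1.83 without the cells of 20 or more UMIs), cluster 17 had 18 and 28.2 CPM (1.57, 1.29 to 1.92) and cluster 9 had 18 and 27.6 CPM (1.53, 0.913 to 2.49). All 4 ratios were above 1, and the interval of cluster 9 reached below it. In male-called cells the ratio of the 4 clusters together was 1.96 (1.63 to 2.36), and 1.43 (1.17 to 1.76) without the cells of 20 or more UMIs. Among male-called cells the intervals of clusters 11 (1.5, 0.774 to 2.71) and 17 (1.18, 0.877 to 1.57) reached below 1, and cluster 16 had 4.96, or 2.38 without the richest cells.

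In these clusters Tchh was spread over many cells at 1 to a few UMIs. A cell held 3 or more Tchh UMIs in 9 of 2496 control cells (0.361%) and 59 of 1328 GOF cells (4.44%), at the depths given above. The share with any UMI was 13% and 29.2%, and 4.48% (3.69 to 5.37) and 8.38% (6.95 to 10.0) after thinning, where 1 UMI is close to the limit of what can be read. Thinned melanocyte-like cells had 2.21% and 1.56% (8.82% and 18.8% unthinned). Few of these cells carried an inner root sheath programme. Only 5 of the 59 GOF cells had 5 or more UMIs of the 7 inner root sheath keratins, and without all cells that did, Tchh was at 16.7 and 31.3 CPM. In cluster 11 no cell of either library had 5 such UMIs, and the summed keratins were at 7.54 and 3.78 CPM. In cluster 16, 32.8% of the GOF Tchh UMIs lay in cells with 5 or more.

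Over all keratinocytes 4 of the 6 genes were at least 2-fold lower in the GOF library and 1 was higher, against 2.37% and 2.39% of 14569 genes with at least 50 UMIs. For Krt36 the levels were 3446 and 1500 CPM (ratio 0.435), for Krt24 they were 148 and 58.4 CPM (0.394). Krtap7-1 was at 11 and 4.56 CPM (0.415) and Krtap3-3 at 4.14 and 0.867 CPM (0.209). Krt84 was at 1301 and 738 CPM (0.567), which is short of 2-fold, and Tchh at 12 and 33.3 CPM (2.77). In scale-like cells 1 gene was lower (Krtap3-3) and 1 higher (Tchh), against 1.61% and 0.677% of 8119 genes, and both calls end without the few cells named above. In the hedgehog-high clusters 4 of the 5 measured were lower and none higher, against 2.6% and 1.52% of 12598 genes. Krtap3-3, with 24 UMIs under the minimum of 50, was lower too (0.349). The median log2 ratio over all genes was 0.08 in keratinocytes, -0.01 in scale-like cells and 0.07 in the hedgehog-high clusters. Of the 17 clusters outside cluster 6 with at least 50 cells in both libraries, Krt36 was lower in the GOF library in 17 and Krt84 in 15, with the melanocyte-like (0.374 and 0.688) and immune-like cells (0.209 and 0.188) among them. Krt24 was lower in all 17, and Tchh was higher in 14.

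**Figure D4:**
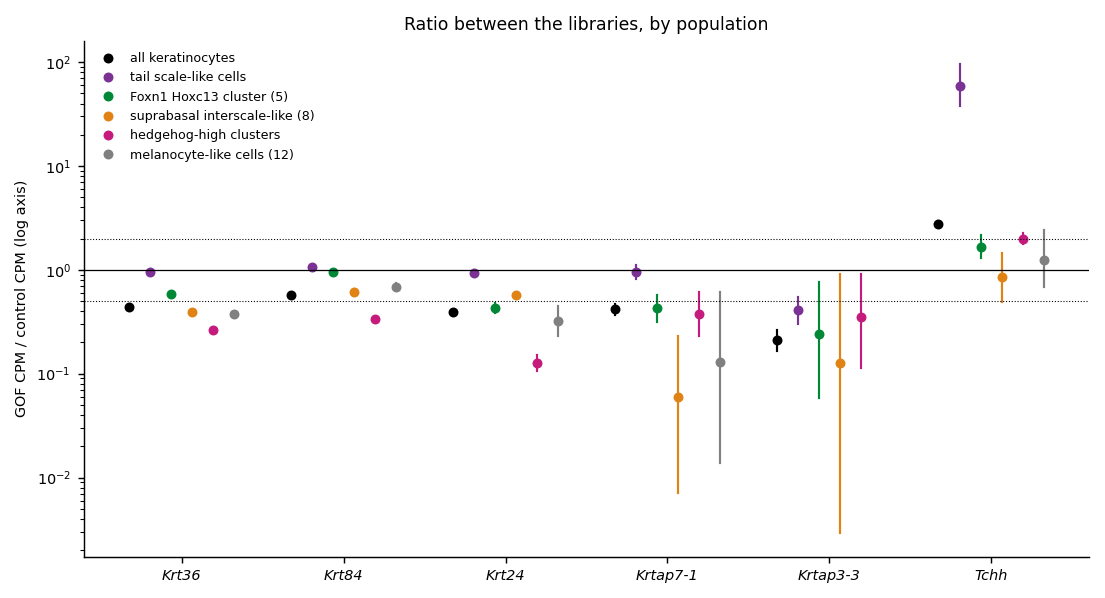
Ratio of GOF to control CPM of each gene in 6 populations on a log axis, with exact 95% intervals for counting error as bars and dotted lines at 2-fold; populations with fewer than 10 UMIs of a gene are left out. Krt36, Krt84, Krt24 and Krtap7-1 lie near 1 in tail scale-like cells and below 1 elsewhere, while Tchh lies above 1 in most populations.

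The small differences between the libraries in scale-like cells did not hold for each sex call. Of the 195 GOF scale-like cells 30 were male-called and 133 female-called, and of the 444 control cells 336 were male-called. Male-called control cells had Krt36 at 37288 CPM (37076 to 37501). Male-called GOF cells had 16914 CPM (16514 to 17321) and female-called GOF cells 42222 CPM (41910 to 42535), a ratio within that library of 2.5 (2.43 to 2.56) in favour of the female-called cells. Krt84 was at 15044, 6809 and 19118 CPM in the 3 groups and Krt24 at 826, 394 and 993 CPM. Krtap7-1 was at 118, 4.98 and 126 CPM, the male-called GOF value resting on 2 UMIs. The male-called GOF to control ratio in scale-like cells was 0.454 for Krt36, 0.453 for Krt84 and 0.476 for Krt24. In male-called cells 5 of the 6 genes were at least 2-fold lower, and no share over all genes was computed for such cells. Sex, mouse and genotype cannot be told apart here, since the control held almost no female-called cells and no label ties cells to mice.

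Within the GOF library, female-called cells were also above male-called cells in clusters 5 and 8, and in cells that should lack these keratins. In melanocyte-like cells Krt36 was at 161 CPM in 26 male-called and 1342 CPM in 79 female-called GOF cells (ratio 8.33, 6.63 to 10.6), and in cycling-like cluster 10 it was at 176 and 1059 CPM (6.03, 5.34 to 6.82). The part of free RNA in the gap between sex calls was not tested. In cluster 5 Krt36 was at 853 CPM in male-called and 3912 CPM in female-called GOF cells, and in cluster 8 at 229 and 848 CPM. Krt84 in cluster 5 was at 485 and 2193 CPM. In cluster 8 Krt24 was at 195 CPM in the 70 male-called and 594 CPM in the 199 female-called GOF cells, against 794 CPM in male-called control cells. In the hedgehog-high clusters, where these keratins were below the low barcodes, male-called and female-called GOF cells had 168 and 164 CPM of Krt36 (ratio 0.977, 0.905 to 1.05) and 83.0 and 99.1 CPM of Krt84 (1.19, 1.07 to 1.33). Whether these ratios differ from those of scale-like cells was not tested. Tchh there was at 32.7 and 36.2 CPM. Over all keratinocytes the male-called ratio was 0.136 for Krt36, 0.165 for Krt84 and 0.147 for Krt24, further from 1 than with all cells.

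**Figure D5:**
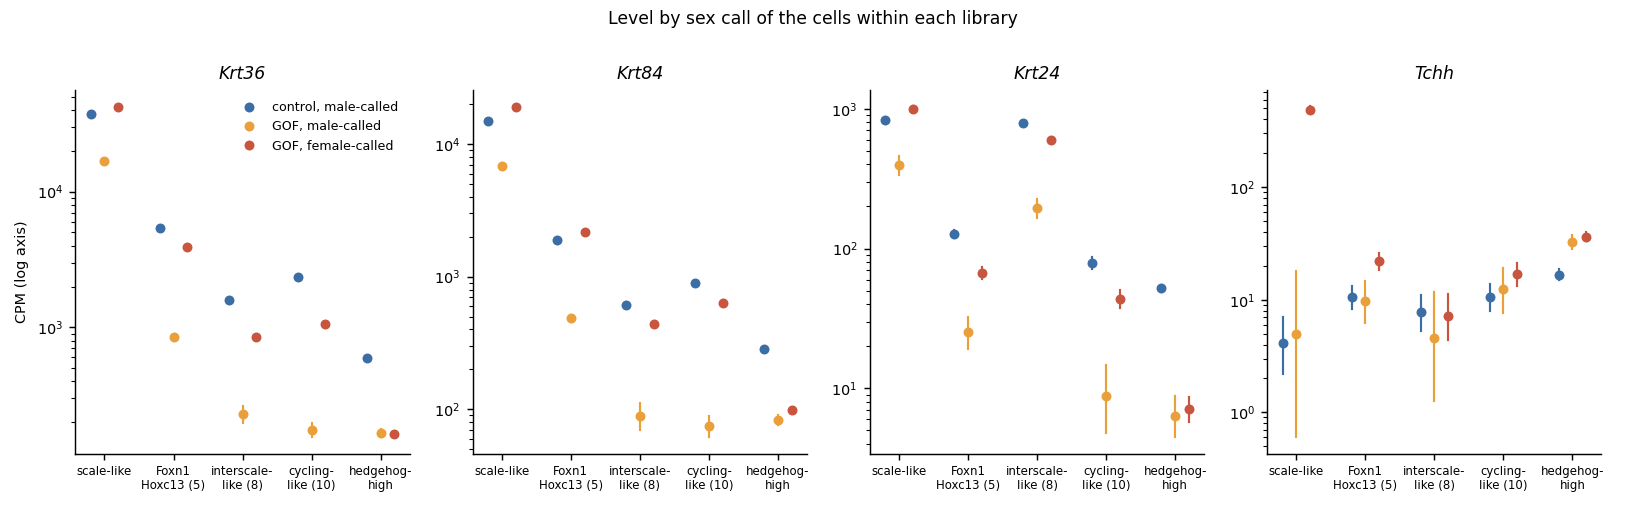
Level of Krt36, Krt84, Krt24 and Tchh on log CPM axes in male-called control cells and in male-called and female-called GOF cells of 5 populations, with exact 95% Poisson intervals as bars. In tail scale-like cells male-called GOF cells lie below both other groups for the 3 keratins (Krt36 at 16914 against 37288 and 42222 CPM), and in the hedgehog-high clusters the GOF groups are at 168 and 164 CPM of Krt36.

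Other genes of the scale and hair programme were taken from lists by their number of UMIs, not by how they moved. Of the 4 measured type I hair keratins other than Krt36, 2 were at least 2-fold lower and 1 higher in GOF keratinocytes (background 2.37% and 2.39%). Krt32, of the hair cuticle, was at 16.2 and 15.8 CPM and Krt35, of the matrix and cuticle, at 2.10 and 5.24 CPM, with 183 of its 514 GOF UMIs in 1 cell. In scale-like cells Krt32 was at 21.8 and 32.4 CPM and Krt31 had 1 and 0 UMIs, and none of the 4 was at least 2-fold higher there than in other control keratinocytes. In the GOF library Krt32, 1 of 2 measured, was 2.11-fold higher there (background 5.5%). Of 6 measured inner root sheath keratins 4 were at least 2-fold higher in GOF keratinocytes (background 2.39%) and none lower (background 2.37%). Krt25 was at 4.48 and 16.3 CPM and Krt71 at 3.58 and 7.48 CPM. Most of these calls rest on the 8 GOF cells rich in Tchh. Without those cells 1 of the 6 was at least 2-fold higher (Krt73, ratio 2.05) and 1 lower (Krt71, 0.336), and Krt25 was at 3.35 GOF CPM (0.747, 0.646 to 0.864). In the hedgehog-high clusters 2 of 5 were higher (background 1.52%), and none without the cells rich in Tchh. There 1 cell held 221 of 392 GOF UMIs of Krt25 and 36 of the 100 of Krt71. Of 55 other keratin-associated protein genes 28 had no UMI and 10 were measured. Among these 10, 9 were at least 2-fold lower in GOF keratinocytes (background 2.37%). In scale-like cells Krtap11-1 was at 14.4 and 6.24 CPM (56 and 16 UMIs). Krtap3-1 was at 26.9 and 10.1 CPM there, but without the 3 cells rich in Krtap3-3 it had only 4 and 5 UMIs left (ratio 1.9, 0.408 to 9.56).

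Transcription factors of hair and scale were all measured, 16 of 16, and none was past 2-fold in either direction in keratinocytes. Their median log2 ratio was 0.18, beside 0.08 over all genes. Hoxc13, which activates hair keratin genes, was at 266 CPM in control scale-like cells and 75.6 CPM in other keratinocytes (326 and 96.2 CPM in the GOF library), 1 of 4 factors at least 2-fold higher there in the control (background 4.71%). Of the 5 measured enzymes that process trichohyalin or are related to those, 2 were at least 2-fold higher in GOF keratinocytes (background 2.39%). The deiminase Padi4 was at 0.990 and 7.25 CPM in the hedgehog-high clusters (ratio 7.33, 4.72 to 11.9), whereas Tgm3, the transglutaminase of hair and epidermis, was at 27.7 and 9.10 CPM there. Soft suprabasal keratins were lower in the hedgehog-high clusters. There 3 of 4 measured were at least 2-fold lower (background 2.6%), with Krt10 at 1267 and 430 CPM and Krt2 at 423 and 69.0 CPM. The summed level of 10 suprabasal interscale markers, these 2 among them, was 4664 and 1848 CPM there. Low barcodes had 16228 and 17814 CPM of it and melanocyte-like cells 8556 and 4839 CPM. The part of free RNA in this drop was not tested. In scale-like cells none of 5 measured soft suprabasal keratins was past 2-fold, with Krt1 and Krt10 higher in the GOF library (ratios 1.97 and 1.42). None of the 3 basal keratins was past 2-fold in either population, with Krt14 at 5140 and 4208 CPM in the hedgehog-high clusters.

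Likeness of pattern was measured as Pearson's r of log2(CPM + 10) over 41 points, each a cluster in 1 library with at least 50 cells. The points share libraries, depth and free RNA, so r is a description. Krt36 and Krt84 were nearly the same (r = 0.99), and Krtap7-1 and Krtap3-3 followed each other (0.92). Tchh was unlike Krt36 (0.16), Krt84 (0.20) and Krt24 (0.03). Among 11583 other genes the closest to Krt84 and to Krt36 was Selenbp1, a selenium-binding protein gene (0.95 and 0.92), then the deubiquitinase gene Josd2 (0.88 for both). Krt24 was closest to Abhd12b (0.90), the phospholipase gene Pla2g4f (0.88) and the interscale keratin Krt2 (0.88). Krtap7-1 was closest to Gldc (0.93), of glycine breakdown, and Krtap3-3 to Sprr2b (0.94), a cornified envelope gene. Tchh was closest to the inner root sheath keratins Krt73 (0.69) and Krt25 (0.66), then to S100a3 (0.66), a calcium-binding protein of the hair cuticle. One of the points behind these values is GOF cluster 6, whose Tchh lay almost all in 2 cells.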

How the data were processed

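Droplet single-cell RNA-seq was deposited for 2 libraries of sorted epidermal cells. The deposited values are raw counts (UMIs per gene and barcode, all whole numbers) from Cell Ranger 6.1.1, per the file headers. R 4.3.0, Seurat 4.2.0 and the build mm10 are named in the submitters' processing notes. The labels name both V2 and V3 chemistry and state 8046 cells for the control, whose matrix held 24844 barcodes (146216083 UMIs), of which 10993 passed the filter used here. The GOF matrix held 11438 barcodes (126329382 UMIs), of which 6922 passed. Scrublet's automatic threshold marked 0 doublets, so the top 6% of scores were removed (719 and 426 cells). Cells were clustered with scanpy 1.11.5 under Python 3.11.15 (2000 variable genes, 30 components, 15 neighbours, Leiden resolution 1), without the 6 genes, other hair genes, Birc5, YFP, sex, mitochondrial and ribosomal genes. UMIs were summed per population and scaled to CPM. A gene counted as measured with at least 50 UMIs and as past 2-fold by its ratio. Intervals are exact (Poisson, conditional or Clopper-Pearson) at 95%, and depth sets them. The intervals of ratios were tried on simulated pooled Poisson counts, the model they assume. That trial cannot show how they fare where a few cells hold many of the UMIs. Of 32286 feature identifiers 32158 were found in GENCODE vM21. Named genes were the 6 members, the 4 genes of each list with the most UMIs, and the 3 most alike. The members and lists were chosen with earlier results of these data known, and clusters were grouped after their genes were seen.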

Additional observations from a re-analysis of the deposited data

Results flagged for a closer look

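Krt84 was higher in the GOF library in 1 population and lower in the other. Its GOF to control ratio was 1.063 in tail scale-like cells, where the gene is at its highest, and 0.3372 in the hedgehog-high clusters, where it lies below the level of barcodes under 1000 UMIs. The difference between the 2 ratios was not tested, as there is 1 library per genotype.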

How the results depend on the processing

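With 1 library per genotype no replicate could be left out and no spread between mice is known. No paired analysis was possible because each genotype has 1 library. Depth limits Krtap7-1, Krtap3-3 and Tchh outside the cells rich in them. Of the counts of genes past 2-fold under the alternatives, 71 stayed within 1.5 times the main count and 15 did not. The ratios of single genes moved too. Over the alternatives the Krt36 ratio ran from 0.136 to 0.482 in keratinocytes and from 0.454 to 1.03 in scale-like cells. The Krt84 ratio in scale-like cells ran from 0.453 to 1.15. Each of these lowest values was that of male-called cells. In keratinocytes 0 genes were higher without the GOF cells of 20 or more Tchh UMIs. In scale-like cells 0 were higher without those cells, when clustered with the hair genes, in male-called cells, or with the low-barcode level subtracted (5 genes with a value). In the same cells 5 were lower in male-called cells, and 0 when thinned to 3000 UMIs or without the cells of 20 or more Krtap3-3 UMIs. In the hedgehog-high clusters 1 gene, Tchh, was higher with at least 2000 genes per cell, at Leiden resolution 0.5, when clustered with the hair genes, when thinned, with a 1.5-fold rule, and with the low-barcode level subtracted. That subtraction left 1 gene with a value, so 0 were lower, and gave none for keratinocytes, for which the clustering alternatives were not run either. The Tchh ratio in scale-like cells turned from 58.9 to 0.644 when clustered with the hair genes and to 0.518 without the cells of 20 or more Tchh UMIs. Leaving out clusters 4 and 13 or the cells rich in Tchh or Krtap3-3, for members and lists, was chosen after the data were seen. The cause of the other changes was not tested.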
